A study of Mus musculus with 6 samples.

Results

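Heat shock proteins and their co-chaperone Bag3 were measured in mouse embryonic stem (ES) cells, the 10 genes Hspa1a, Hspa1b, Hspa8, Hsph1, Dnajb1, Hspb1, Hsp90aa1, Hspa4l, Hspd1 and Bag3. All probe sets to which the platform annotation gave 1 symbol that is one of these were taken, which gave 26 of the 45037 probe sets tested and 10 of 18193 genes with such a probe set. The cells were the line EBRTcH3 with the human WBSCR1 coding sequence, tagged with 3xFLAG, at the ROSA26 locus behind a promoter that tetracycline keeps silent. Control cells were grown with tetracycline and induced cells for 24 h without it, and every group carried the transgene. Each of the clones A1, A3 and A4, 3 in all and derived separately, gave 1 control and 1 induced array, 6 Affymetrix whole-genome mouse arrays of total RNA in all, so that 1 clone stood on 2 arrays. No line without the transgene was on the arrays used here, so the transgene and the removal of tetracycline cannot be told apart.

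Heat shock proteins are molecular chaperones. Hsp70 proteins hold unfolded stretches of other proteins in a cycle of ATP binding and hydrolysis: J-domain proteins such as Dnajb1 deliver the client and start hydrolysis, and nucleotide exchange factors such as Hsph1, Hspa4l and Bag3 let it go. Hsp90 takes up clients from Hsp70, small heat shock proteins such as Hspb1 keep unfolded proteins soluble, and Hspd1 is the Hsp60 folding chamber of mitochondria. Bag3 also binds small heat shock proteins and steers clients of Hsp70 into selective autophagy. The transcription factor Hsf1 raises the stress-inducible genes through heat shock elements, which are inverted repeats of a short unit with GAA at its core. In what follows Hspa1a, Hspa1b, Hsph1, Dnajb1, Hspb1 and Bag3 are grouped as inducible, and Hspa8, Hsp90aa1, Hspd1 and Hspa4l, which are made in quantity or in a set of tissues without stress, as constitutive. The division is one of degree, since heat also raises some of the constitutive genes, Hsp90aa1 among them.

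Promoter sequences are shown for the genes that differed most between clones and for those with the clearest heat shock elements. RefSeq promoters of build GRCm38.p6, from 250 bases before to 50 after the start of transcription, were held for 8 of the 10 genes in 11 entries, and Hspa8 and Hsp90aa1 had none. Each was searched on both strands for the 8-letter motifs GAANNTTC and TTCNNGAA, each of which is its own reverse complement. The first was held by 7.86% of all 32851 promoters and by 7 of 11 entries of these genes, and the second by 8.52% and by 3 of 11. At least 1 of them was found in 15.1% of all promoters and in 7 of the 11. Matches may overlap and are capitalized below, in sequences that run 5′ to 3′ on the gene's own strand, with positions counted from the start of transcription and negative before it. Coordinates are those of the stretch shown.

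Hspa1a and Hspa1b lie on the minus strand of chromosome 17 and code for nearly the same Hsp70 protein. The 250 bases before the start, chr17:34959239-34959488 for Hspa1b and chr17:34972157-34972406 for Hspa1a, were identical at 247 of 250 positions (98.8%), with 1 GAANNTTC at -104 to -97 in each. The 250 bases before the start of Bag3, chr7:128523333-128523582 on the plus strand, held neither motif.
Hspa1b: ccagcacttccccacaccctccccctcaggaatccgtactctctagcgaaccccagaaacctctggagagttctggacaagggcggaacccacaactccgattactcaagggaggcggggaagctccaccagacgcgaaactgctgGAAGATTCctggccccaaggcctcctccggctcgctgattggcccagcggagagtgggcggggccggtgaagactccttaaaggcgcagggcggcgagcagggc
Hspa1a: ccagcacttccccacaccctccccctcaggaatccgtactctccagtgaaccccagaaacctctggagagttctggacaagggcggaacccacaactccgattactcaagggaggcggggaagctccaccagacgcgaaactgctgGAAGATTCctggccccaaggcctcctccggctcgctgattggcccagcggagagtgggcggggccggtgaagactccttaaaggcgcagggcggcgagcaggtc
Bag3: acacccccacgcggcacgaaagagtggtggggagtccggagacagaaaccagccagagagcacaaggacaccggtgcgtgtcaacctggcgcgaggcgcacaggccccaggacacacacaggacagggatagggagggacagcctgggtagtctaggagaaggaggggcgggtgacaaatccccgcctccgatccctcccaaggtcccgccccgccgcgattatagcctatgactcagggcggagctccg

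In Bag3 the 1 match lay after the start, at 43 to 50 (chr7:128523619-128523632). Hspb1 had 2 matches, at -117 to -110 and -97 to -90 (chr5:135887796-135887835, plus strand). Alternating GAA and TTC over 3 units was held by 0.603% of all promoters and by entries of 2 of these genes. Hspd1 held 2 overlapping runs of 3 units in its second entry, which together span -144 to -127 (chr1:55088053-55088082, minus strand). Hsph1 held such a run in its first entry at 37 to 49 (chr5:149636287-149636306, minus strand). The first entry of Hsph1 also had a match before the start, at -33 to -26. The second entry of Hsph1 starts nearby and held the same matches, so the counts of entries include them again. Neither motif was found in the windows of Dnajb1 and Hspa4l or in the first entry of Hspd1, which says only that these letters were not in these windows.
Bag3: ggaccaGAAGTTTC
Hspb1, first match: acaagaGAAGTTTCcagatg
Hspb1, second match: ggggcaGAACCTTCctggcc
Hspd1: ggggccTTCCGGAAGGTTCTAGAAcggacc
Hsph1: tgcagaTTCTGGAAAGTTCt

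Signals were read on the log2 scale of the robust multiarray average (RMA), on which a difference of 1 is a doubling, and array medians lay between 5.11 and 5.18. Levels of different probe sets are not compared, since each has its own affinity. The A3 arrays stood apart from the rest on several of the control probe sets. The poly-A spike-in controls, which are added to the RNA before labelling, averaged 7.27 to 7.39 log2 on the A3 arrays against 5.97 to 6.35 on the other 4, and the hybridization control bioC was 1.05 log2 higher in A3. The 18S ribosomal RNA controls read 6.94 in A3 on average and 6.17 elsewhere, with overlap. The hybridization control bioB read 8.16 to 8.26 in A3 and 7.88 to 8.15 elsewhere. The 3 prime minus 5 prime signal of the Actb controls was 0.295 to 0.316 log2 in A3 and 0.403 to 0.451 elsewhere, while that of Gapdh overlapped. Of the ES cell identity markers, 8 pluripotency genes were measured and read 10.5 to 14.1 log2 as clone means, far above the array medians, with 0 differing by the F test over clones. Of 7 fibroblast markers 0 differed either, with clone means of 2.61 to 7.27. Klf4 of the pluripotency markers was lower in A3 (-0.51 log2, limma adjusted p = 0.0384).

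Clone A3 had less Hspa1a and Hspa1b, the stress-inducible Hsp70 genes, and less Hsp90aa1, a cytosolic Hsp90, than A1 and A4, and it had more Bag3. Against the mean of the other clones Hspa1b was 2.14-fold lower, Hsp90aa1 1.45-fold lower and Bag3 1.61-fold higher, and the dimmer Hspa1a differed by -0.83 log2. The remaining 6 genes did not pass on their brightest probe set. With bulk RNA, fewer cells that express a gene and less RNA per cell cannot be told apart. The 2 A3 arrays also stood apart on spike-in controls, so a difference of the clone and one of array handling cannot be told apart. That Hspa1a and Hspa1b stand against Bag3 in A3 was known from earlier results of these data when the genes were chosen.

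**Figure D1:**
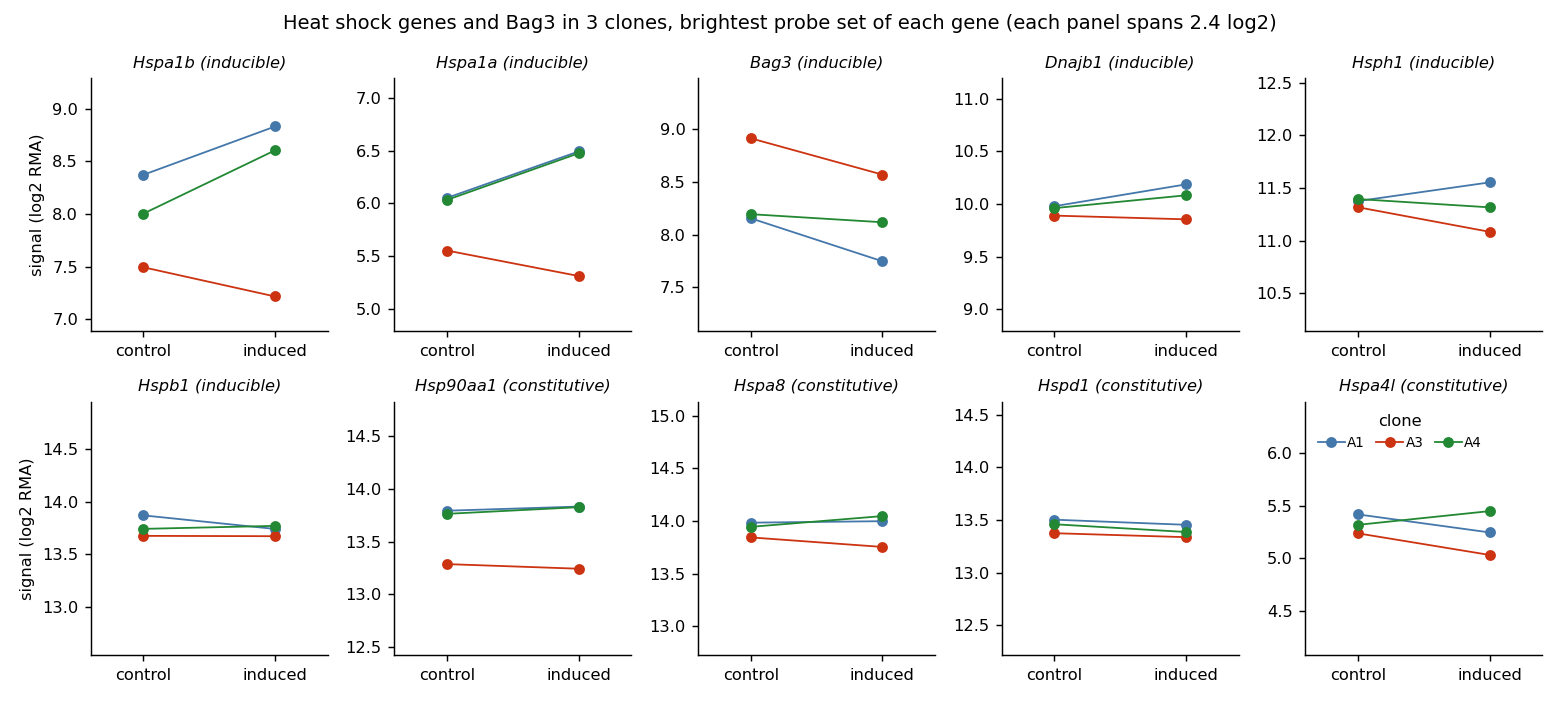
Signal of the brightest probe set of each of the 10 genes (vertical axis, log2 RMA, each panel on its own range of equal height) on the control and induced array of each clone (horizontal axis), where a line joins the 2 arrays of a clone. The A3 line lies below both others for Hspa1b (7.49 and 7.22), Hspa1a and Hsp90aa1 and above them for Bag3 (8.92 and 8.57).

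Hspa1b, whose product refolds proteins after heat, had 3 probe sets. The brightest, 1452318_a_at, read 8.37 log2 on the control and 8.83 on the induced array of A1, 7.49 and 7.22 in A3, and 8.004 and 8.61 in A4. Both A3 arrays lay below all others, and the nearest other array was the control of A4. Clone A3 was -1.10 ± 0.17 log2 (SE, n = 2 arrays against 4) from the mean of A1 and A4, with a limma adjusted p of 0.0087. The second probe set, 1427127_x_at, read 7.16 and 6.89 in A3 against 7.73 to 8.53 elsewhere, and the third, 1427126_at, read 6.81 and 6.40 against 7.26 to 8.23. All 3 placed A3 lowest, by -1.14 log2 (adjusted p = 0.0059) and -1.22 log2 (0.0112) on the other two. Without the induced array of A3 the difference on the brightest probe set was -0.69 (0.0531), and without the induced array of A1 it was -1.02 (0.0542). The probe set 1427126_at also missed the threshold without either array (0.0606 and 0.0665), while 1427127_x_at passed without each array in turn, with adjusted p of at most 0.0412.

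Hspa1a had 1 probe set, 1452388_at, which read 6.05 log2 on the control and 6.49 on the induced array of A1, 5.55 and 5.31 in A3, and 6.03 and 6.47 in A4. Both A3 arrays were lowest and close to the array medians, and whether they were above background was not tested, while A1 and A4 nearly coincided in each condition. The difference of A3 was -0.83 ± 0.16 log2 (SE), with an adjusted p of 0.0155. Without the induced array of A3 it was -0.49 (0.130), and without the induced array of A1 -0.75 (0.0785). Hspa1a and Hspa1b are near-identical copies, and probe sequences were not used here, so which of the 2 transcripts each of these 4 probe sets reads is uncertain.

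Bag3 ran the other way on its 1 probe set, 1422452_at. It read 8.16 log2 on the control and 7.75 on the induced array of A1, 8.92 and 8.57 in A3, and 8.19 and 8.12 in A4. Both A3 arrays were above all others, and A3 exceeded the mean of A1 and A4 by 0.69 ± 0.11 log2 (SE, limma adjusted p = 0.0087). Without the control array of A3 the difference was 0.64 (0.0644), and without its induced array 0.74 (0.0585), so the call needed both arrays.

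Set against each other within an array, Hspa1b minus Bag3 was -1.42 log2 on the control and -1.35 on the induced array of A3, while the other 4 arrays ranged from -0.19 to 1.08. The mean of A3 minus that of the other clones was -1.79 log2. For Hspa1a and Bag3 the corresponding shift was -1.52, and for Hsp90aa1 and Bag3 -1.23. These shifts were chosen for their contrast and were not tested.

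Hsp90aa1 had 5 probe sets. The brightest, 1426645_at, read 13.79 log2 on the control and 13.83 on the induced array of A1, 13.29 and 13.24 in A3, and 13.76 and 13.83 in A4. The spread within each clone was at most 0.063 log2, and A3 lay at -0.54 ± 0.097 log2 (SE, adjusted p = 0.0134). Of the others, 1437497_a_at was also lower (-0.71 log2, 0.0228) but was not called by the F test (0.0658), and its adjusted p in A3 was 0.102 without the control array of A3, 0.148 without its induced array and 0.0730 without the induced array of A1. The probe set 1438902_a_at read -0.43 (0.0514) and 2 dim probe sets read -0.57 (0.104) and 0.038 (0.858). On the brightest probe set the adjusted p was 0.0574 without the control array of A3, 0.129 without its induced array and 0.0609 without the induced array of A1, with differences of -0.49 to -0.59.

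Hspa8, the Hsp70 that ES cells make at all times, differed in A3 on 1 of 4 probe sets. The brightest, 1420623_x_at, read 13.98 log2 on the control and 14.00 on the induced array of A1, 13.84 and 13.75 in A3, and 13.94 and 14.05 in A4, a difference of -0.19 ± 0.10 log2 (SE, adjusted p = 0.284). Its signal was near the highest on these arrays. The dimmest, 1431182_at, read 7.97 and 7.95 in A1, 7.11 and 7.19 in A3 and 7.67 and 7.51 in A4, and was lower in A3 by -0.62 log2 (0.0099), with 0.0799 without the control array of A3 and 0.0508 without the induced array of A1. On 1420622_a_at the induced array of A3 read 11.44 and all others 12.33 to 12.96 (-0.79 log2, 0.107). The 4 probe sets shared a direction and not a size.

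The other co-chaperones and chaperones did not pass. Dnajb1, the J-domain partner of Hsp70, had 2 probe sets that disagreed: 1416755_at read -0.18 ± 0.10 log2 (SE) in A3 and 1416756_at 0.21 ± 0.11, with adjusted p of 0.334 and 0.290, and the mean of the 2 read 0.017. Hsph1, the Hsp110 exchange factor, read -0.21 ± 0.12 and -0.23 ± 0.12 log2 on its 2 probe sets (0.315 and 0.288), with the induced array of A3 lowest on both (11.08 and 10.63). Hspb1, a small heat shock protein, read 13.67 and 13.68 in A3 against 13.74 to 13.87 elsewhere on its brighter probe set (-0.11 log2, 0.565) and overlapped on the other. Hspd1, the mitochondrial chaperonin, read 13.34 to 13.38 in A3 and 13.39 to 13.50 elsewhere (-0.095 log2, 0.601). Hspa4l, an Hsp110 gene best known from testis, was dim on all 5 probe sets, and its brightest read 5.03 to 5.24 in A3 and 5.25 to 5.45 elsewhere (-0.22 log2, 0.270).

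**Figure D2:**
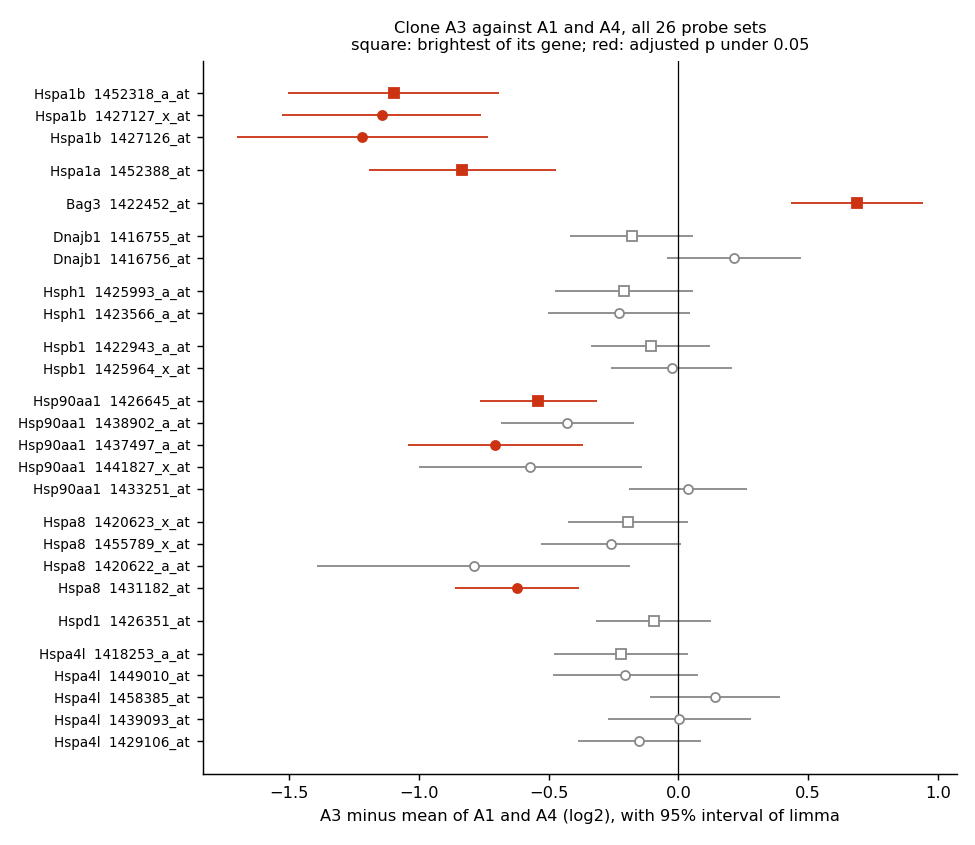
Difference of clone A3 from the mean of A1 and A4 (horizontal axis, log2) for all 26 probe sets (vertical axis), with the 95% interval of limma. Squares mark the brightest probe set of a gene and red an adjusted p under 0.05. The 3 Hspa1b probe sets lie at -1.10 to -1.22 and Bag3 at 0.69, and Dnajb1 has a probe set on each side of 0.

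By counts, the F test over clones called 7 of 26 probe sets, where 5.54% of all probe sets were called, and 4 of 10 genes on the brightest probe set, where 6.84% of all genes were. Lower in A3 were 7 of 26 probe sets (background 5.68%) and 3 of 10 genes (6.32%), and higher were 1 of 26 (3.89%) and 1 of 10 (5.13%). These backgrounds take in dim probe sets. Among the 23591 probe sets with a mean of at least 5 log2 the F test called 2615, a larger share, and 7 of 20 members. The test of A3, in either direction, called 4515 of the 23591 and 9 of the 20 members. Both A3 arrays lay below the other 4 for 16 of 26 probe sets and 8 of 10 genes, where this held for 16.6% and 18.5% of all. They lay above for 3 of 26 and 1 of 10, where the background was 19.8% and 23.1%. Probe sets of a gene share its transcript and are not separate evidence. The contrast of Hspa1a and Hspa1b with Bag3 in A3 was known when the genes were chosen, so these counts are not an independent test. Of the probe sets that the F test called, 5 were of those 3 genes, as were 3 of the genes called. The F test called 0 of the 26 without the control array of A1, the induced array of A1 or the induced array of A3, with 9, 9 and 8 at an unadjusted p under 0.05. The test of A3 called 2 of 26 without the induced array of A1 and 2 without that of A3, against 8 with all arrays.

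The grouping by inducibility did not separate the genes. The median difference of A3 was -0.19 log2 over the 6 inducible genes and -0.21 over the 4 constitutive ones, where the median of all genes was 0.038. The inducible genes spanned -1.10 to 0.69 with 5 below 0, and the constitutive genes -0.54 to -0.095 with 4 of 4 below 0. Of the inducible genes 3 of 6 were called by the F test and of the constitutive genes 1 of 4, where 6.84% of all genes were. The 3 were Hspa1a, Hspa1b and Bag3, whose contrast in A3 was known when the genes were chosen.

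Measures outside the heat shock genes moved with A3 too. Of 7 markers of primitive endoderm, an early lineage that appears in ES cultures, 7 were lower in A3 and 5 passed, where 6.32% of all genes were called lower, with a median of -0.73 log2 and Dab2 at -1.12. Their mean level was 4.83 and 4.92 on the A3 arrays and 5.27 to 5.73 on the others. These levels are close to the array medians, and whether they were above background was not tested. All these values are of brightest probe sets. Dimmer ones read -0.17, 0.0024 and -0.74 log2 in A3 for Dab2, 0.14 for Gata4 and -0.67 and -0.11 for Gata6. For Pdgfra they read -0.31 and -0.036, and for Sox7 -0.076. Of these dimmer ones only that at -0.74 passed. On the brightest Pdgfra probe set A3 (4.31 and 4.50) overlapped A4 (4.59 and 4.48). The poly-A spike-ins were 1.21 log2 and bioC 1.05 log2 higher in A3, in the direction of Bag3 and opposite to Hspa1a, Hspa1b and Hsp90aa1, while the spike-ins bioD and cre were -0.27 and -0.21. The part of these measures in the differences of A3 was not tested, and with A3 only on these arrays it cannot be separated from the clone.

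**Figure D3:**
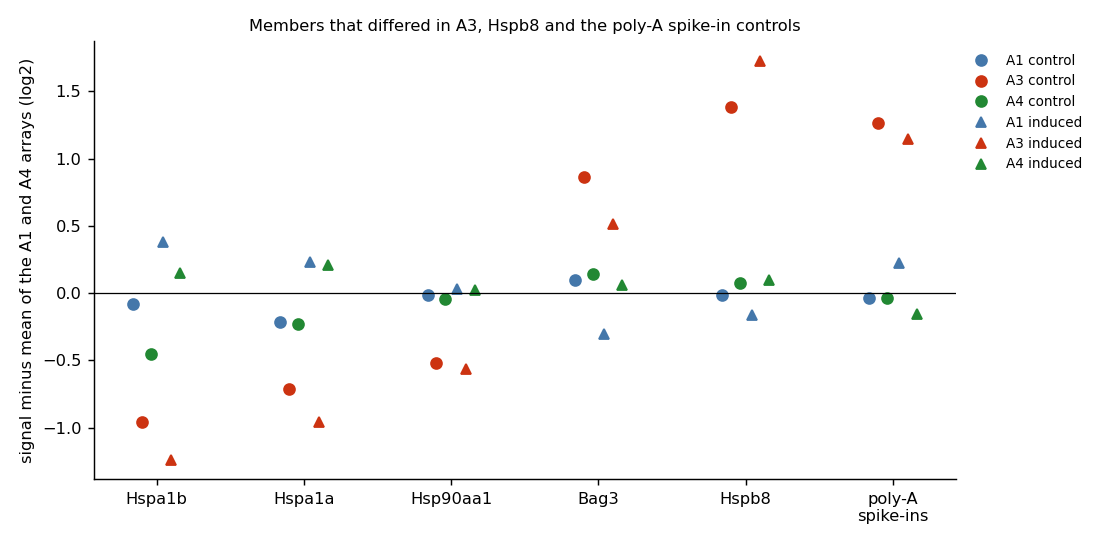
Signal on each array minus the mean of the 4 A1 and A4 arrays (vertical axis, log2) for the brightest probe sets of the 4 genes that differed in A3, of Hspb8 and for the mean of the poly-A spike-in controls (horizontal axis). Circles are control and triangles induced arrays, and the red A3 symbols lie below 0 for Hspa1b, Hspa1a and Hsp90aa1 and above 0 for Bag3, Hspb8 and the spike-ins.

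No member passed between A1 and A4. Of 26 probe sets limma called 0, with 1 at an unadjusted p under 0.05, where 0.0178% of all probe sets were called. A4 minus A1 was -0.30 ± 0.20 log2 (SE) for Hspa1b, -0.018 ± 0.18 for Hspa1a and 0.20 ± 0.13 for Bag3. The adjusted p was 1 for each of these 3.

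No heat shock gene passed the test of induction, which asked what 24 h without tetracycline changed. Limma called 0 of 26 probe sets, with 0 at an unadjusted p under 0.05, where the background was 0%. With clone as a block the count was also 0 of 26 (background 0%), and 1 was under 0.05 before adjustment. By the methods' t-test 0 members passed, with 0 under 0.05 before adjustment and 1 in its paired form. The inserted coding sequence had no untranslated regions, and whether these arrays read it was not analysed here.

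The control arrays averaged 7.96 ± 0.44 log2 for Hspa1b and the induced arrays 8.22 ± 0.87 (SD, n = 3 each), a difference of 0.26 ± 0.42 (SE) whose 95% interval ran from -0.72 to 1.24. Hspa1a changed by 0.21 ± 0.32 and Bag3 by -0.28 ± 0.26, also with wide intervals that take in 0. These had adjusted p of 0.999942 by limma. With clone as a block, Bag3 was the member under 0.05 before adjustment, and its adjusted p of limma was 0.999861. For Hspa8, Hsp90aa1, Hspd1 and Hspb1 the mean change lay between -0.053 and 0.020 log2, and for Hsp90aa1 and Hspa8 its sign turned with the mean of all probe sets.

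Within single clones, A3 ran against A1 and A4. Hspa1b was 0.46 log2 higher on the induced array in A1 and 0.60 in A4, and in A3 it read -0.28. Hspa1a gave 0.44 in A1, 0.44 in A4 and -0.24 in A3. The change of Dnajb1 was 0.21, 0.12 and -0.035 in A1, A4 and A3 on the brightest probe set, and its other probe set did not share the pattern. Hsp90aa1 changed by 0.039, 0.063 and -0.044, and Hspa8 by 0.014, 0.10 and -0.090. On 1420622_a_at of Hspa8 the values were 0.33, 0.55 and -0.89, and 1455789_x_at shared the pattern. The Hspa8 probe set called in A3, 1431182_at, ran the other way, with -0.025, -0.16 and 0.084. Of the dimmer Hsp90aa1 probe sets, 1441827_x_at shared the pattern, and 1438902_a_at, 1437497_a_at and 1433251_at did not. With 1 array for each clone and condition these changes have no replicate check, and a difference in response between clones was not tested.

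Bag3 did not share that pattern: its change in A1 was -0.41 log2, in A3 -0.34 and in A4 -0.077. Hspd1 was also lower in all clones, by values of -0.049, -0.038 and -0.073. Hsph1 gave 0.18 in A1, -0.23 in A3 and -0.079 in A4 on its brightest probe set. Its other probe set, 1423566_a_at, gave 0.15, -0.23 and 0.17 and did share the pattern. Hspb1 gave -0.13, -0.0031 and 0.029 in A1, A3 and A4. In A3 10 of 10 genes had a negative change on the brightest probe set, and the share of all genes with such a change was not counted. Some dimmer probe sets read positive in A3: 1416756_at of Dnajb1 (0.057 log2), 1425964_x_at of Hspb1 (0.11) and 1431182_at of Hspa8 (0.084). So did 1449010_at (0.20), 1458385_at (0.14) and 1429106_at (0.035) of Hspa4l, while the remaining dimmer ones read negative. The median change in A3 on brightest probe sets was -0.24 over the inducible and -0.067 over the constitutive genes and 0.019 over all genes. The medians were 0.19 and -0.017 in A1 (all genes -0.022) and 0.075 and 0.083 in A4 (all genes 0.0045). The pattern of a higher value on induction in A1 and A4 and a lower one in A3 was met by 11 of 26 probe sets, with a background of 13.2%, and by 5 of 10 genes, with a background of 12.9%. A lower value in all clones was met by 3 of 26 (background 11.9%). The 18S controls were 1.36 log2 higher on the induced array of A1, 0.66 on that of A3 and 0.0030 on that of A4, and their part in these changes was not tested.

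**Figure D4:**
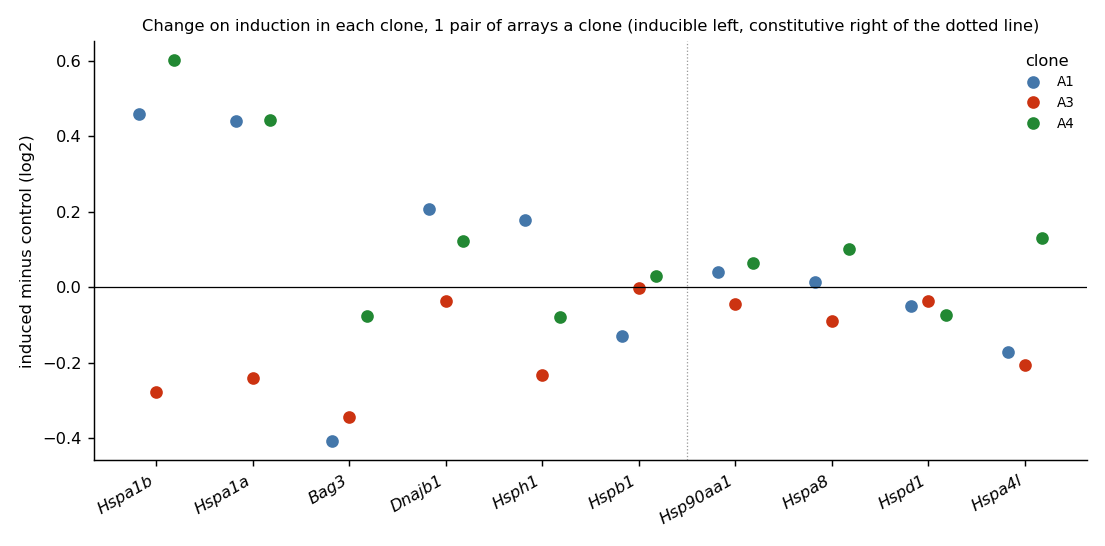
Induced minus control signal (vertical axis, log2) of the brightest probe set of each of the 10 genes (horizontal axis) in clones A1, A3 and A4, 1 pair of arrays a clone. The A3 points lie at -0.28 for Hspa1b and -0.24 for Hspa1a while A1 and A4 lie at 0.44 to 0.60, and all 3 clones lie below 0 for Bag3.

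Among 70 measured genes of 9 related lists the F test over clones called 2, where 6.84% of all genes were called, so the lists held no more than the background. The 2 are given for their values. Hspb8, the small heat shock protein that forms a complex with Bag3, read 6.71 log2 on the control and 6.56 on the induced array of A1, 8.11 and 8.45 in A3, and 6.81 and 6.82 in A4. A3 exceeded A1 and A4 by 1.56 ± 0.12 log2 (SE, limma adjusted p = 0.000624), by 1.19 (0.00269) on a second probe set and by 0.34 (0.110) on the third. Bag5, another exchange factor of Hsp70, was lower in A3 by -0.70 ± 0.10 log2 (0.00622), while its dimmer probe set read 0.17 (0.356). In the test of A3 alone, Cryab, a small heat shock protein (-0.66, adjusted p = 0.0480, 1 of 3 probe sets), and Bag6, which guards newly made membrane proteins (-0.43, 0.0498), were also lower, both close to the threshold. No member of these lists passed on induction or between A1 and A4.

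The other lists held no gene that passed. Over the regulators of heat shock factors 0 of 5 passed in A3 (median 0.064 log2), with the inhibitor Hsbp1 at 0.32 (adjusted p = 0.0866) and Hsf4 at 0.16. Of the other Hsp70 and Hsp110 genes 0 of 7 passed (median -0.086), with Hspa4 at -0.17 and Hspa12b at -0.083, and of other DnaJ genes 0 of 13 (median -0.11), with Dnajb2 at -0.43 (0.0651) and the synaptic vesicle protein Dnajc5 at -0.36 (0.0617). In the Hsp90 system 0 of 8 passed (median 0.14), with the co-chaperones Chordc1 at 0.32 and Stip1 at 0.24. Mitochondrial chaperones and proteases gave 0 of 8 (median -0.027), with Clpb at 0.24 and Grpel2 at 0.19, and the cytosolic chaperonin 0 of 8 (median 0.071), with its subunits Cct4 at 0.15 and Cct5 at 0.13. Of 4 genes of the autophagy that Bag3 feeds, 0 passed (median 0.14), with the receptor Sqstm1 at 0.30 and the deacetylase Hdac6 at 0.22. The other small heat shock genes had a median of 0.24 over 9 and the BAG family with Hsp70 cofactors -0.13 over 8, where all genes had 0.038. Hsf1, Hsp90ab1, Ptges3 and Ppid were not analysed here.

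The genes whose pattern over the 6 arrays came closest to a member were found by the root mean square difference of signals centred on their own means, among 9738 genes with a mean of at least 6 log2. For Hspa1b these were Dcaf12l1 (0.160 log2), Lcor (0.173), Rbm26 (0.174), Fjx1 (0.178) and Pdzd2 (0.180). For Bag3 they were Add3 (0.0815), Lima1 (0.107), Igf2bp3 (0.127), Dclk2 (0.128) and Hook2 (0.129). Seen from Hspa1b, Hsp90aa1 ranked 465 and Bag3 9541 of the 9738 genes. The distance of Hspa1b and Bag3 from each other was 0.923 log2. Their contrast in A3 was known when the genes were chosen, so the rank of Bag3 is not a separate result. Hspa1a had a mean under 6 and was not ranked.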

How the data were processed

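The deposited values are log2 signals of 45101 probe sets on 6 arrays, which the authors made with the robust multiarray average (RMA) function of affy in Bioconductor. Its version is not given in the sources. No further normalization was applied. RMA places all arrays on one distribution, so a shift of all genes at once cannot be seen. The tests did not use the 64 control probe sets of Affymetrix. The platform annotation gave 1 symbol for 34945 probe sets, several for 932 and none for 9160. The number of arrays limits the precision, and p-values measure only the spread between these arrays.

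Sample labels gave the group and clone of each array. Two-sided tests were made with limma 3.58.1 (lmFit, eBayes; R 4.3.3), and p-values were adjusted by Benjamini-Hochberg over all 45037 probe sets, with 0.05 as threshold. Induced and control arrays were compared with condition as the only term, after the study's methods, with clone as a block and the methods' t-test as alternatives. Clones were compared in a fit of condition and clone, by the F test and as A3 against the mean of A1 and A4 and A4 against A1. The labels pair the arrays of a clone. After subtraction of each condition's mean, the 2 arrays of a clone correlated over probe sets with r = 0.313 (A1), 0.670 (A3) and 0.290 (A4). A gene with several probe sets was led by the one with the highest mean. The genes named were all members, the 2 genes of each related list with the smallest p in the F test, other list genes that passed, and the 5 closest in pattern to Hspa1b and to Bag3. The members and lists were chosen with earlier results of these data known. The tests were tried on simulated data before use. Alternatives were other normalizations, a filter at a mean of 5 log2, other variance options, an adjusted p of 0.1, a size of at least 0.5 log2, the mean of a gene's probe sets, and leaving out arrays or clones. Promoters came from RefSeq (GRCm38.p6), and matplotlib 3.10.9 (Python 3.11.15) made the plots.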

Additional observations from a re-analysis of the deposited data

Results flagged for a closer look

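For 5 genes the change on induction of the brightest probe set pointed one way in A1 and A4 and the other way in A3. Each clone gave 1 pair of arrays, and some dimmer probe sets of Dnajb1, Hspa8 and Hsp90aa1 did not share the pattern. The change in A3 minus the mean change in A1 and A4 was -0.81 log2 for Hspa1b, -0.68 for Hspa1a, -0.20 for Dnajb1, -0.15 for Hspa8 and -0.095 for Hsp90aa1. These differences between clones were not tested, since no clone had a second array of either condition.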

How the results depend on the processing

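The calls of members moved little with normalization, filter, variance model, threshold or added size: 6 to 9 of 26 probe sets by the F test over clones (7 as reported), 8 or 9 in A3 (8) and 0 between A4 and A1 and on induction. At an adjusted p of 0.1 the calls over all probe sets were 4060 against 2496 by the F test and 6662 against 4309 in A3. With the replicate block, which pairs the arrays of a clone, 0 members were called, as without it, and it changed no call.

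Single arrays mattered more. Without each array in turn, the F test called 0 to 6 members and 589 to 1959 of all probe sets, the test of A3 called 2 to 9 and 1312 to 3098, and A4 against A1 called 0 and 1 to 8. The difference of A3 kept its sign in each of these fits, at -1.50 to -0.69 log2 for Hspa1b, -1.17 to -0.49 for Hspa1a, -0.59 to -0.49 for Hsp90aa1 and 0.61 to 0.76 for Bag3, and the highest adjusted p was 0.0542, 0.130, 0.129 and 0.0644. With fewer arrays fewer degrees of freedom are left. The clone tests without both control replicate 3 and induced replicate 1 could not be fitted, as no residual degrees of freedom remain.

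Some changes turned sign, and not only those near 0: as reported, Hspa1b on induction was 0.26 log2 and Dnajb1 in A3 was -0.18. On induction the sign turned for Hspa8 with a second quantile normalization (-0.0061 log2). Without control replicate 3 and induced replicate 1 together it turned for Hspa1b (-0.022), Hsp90aa1 (-0.0050) and Hspa8 (-0.014). It also turned for Hsp90aa1 (-0.00045) and Hspa8 (-0.0062) with the mean of a gene's probe sets. That mean turned Dnajb1 in A3 to 0.017, and in A4 against A1 it turned Hsp90aa1 to 0.016 and Hspa8 to -0.11. Hspa8 in A4 against A1 was also -0.019 with array medians subtracted and -0.0019 with a second quantile normalization. Without single arrays or clones the change on induction ranged from -0.046 to 0.76 for Hspa1b, -0.14 to 0.22 for Hsp90aa1, -0.048 to 0.098 for Hspa8, -0.078 to 0.019 for Hspb1, -0.16 to 0.072 for Hsph1 and -0.19 to 0.023 for Hspa4l. In A4 against A1 it ranged from -0.14 to 0.021 for Dnajb1, -0.19 to 0.15 for Hspa1a, -0.12 to 0.021 for Hspb1, -0.28 to 0.058 for Hsph1, -0.050 to 0.015 for Hsp90aa1, -0.11 to 0.21 for Hspa4l and -0.066 to 0.075 for Hspa8. The cause of these turns was not tested. Dim probe sets, such as those of Hspa4l, limit what can be read.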
